A study of Mus musculus with 4 samples.

Results

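The genes examined were the snoRNA host genes of mouse embryonic palatal mesenchyme, a set of 10 listed genes made up of *Snhg1*, *Snhg3*, *Snhg4*, *Snhg5*, *Snhg6*, *Snhg7*, *Snhg8*, *Snhg11*, *Snhg12* and *Gas5*. Of these, 9 had a row among the 21282 genes with a transcript entry of at least 200 bases, and 8 were among the 7377 genes that reached an FPKM of 5 in at least 1 embryo. FPKM divides the sequenced fragments of a transcript by its length and by the mapped total of the library. *Snhg5* was not analysed here. *Snhg11* had a row but stayed under the FPKM filter. The set was listed because of its pattern in these same embryos, with *Snhg7* selected on its lower level after loss of *Foxf2*, so the differences between genotypes are given below as values without a test.

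A snoRNA host gene is a gene whose transcript carries small nucleolar RNAs (snoRNAs), most often inside its introns. When the host transcript is spliced, the intron is trimmed to release the snoRNA, which then guides ribose methylation (box C/D snoRNAs) or pseudouridylation (box H/ACA snoRNAs) of ribosomal and other RNAs in the nucleolus. Many of these hosts encode no known protein. Their spliced exons are often destroyed by nonsense-mediated decay, and several, *Gas5* among them, begin with the 5′ terminal oligopyrimidine (TOP) sequence that they share with ribosomal protein mRNAs. *Gas5* owes its name, growth arrest-specific, to its accumulation in growth-arrested cells.

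RNA was sequenced from palatal shelves of 4 mouse embryos at E13.5 on a mixed background, all heterozygous for *Osr2*RFP, a knock-in reporter read from the endogenous *Osr2* locus, and only RFP-positive cells taken by cell sorting were used. A pair of embryos was *Foxf2*-/-*Osr2*RFP/+, with *Foxf2*, a forkhead transcription factor of the palatal mesenchyme, lacking throughout the embryo. The control group held 1 embryo labelled *Osr2*RFP/+ with no *Foxf2* mutation, called *Foxf2*+/+ here, and 1 *Foxf2*+/-*Osr2*RFP/+ embryo. The controls were littermates, and neither control genotype had a replicate.

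*Foxf2* itself was at 85.4 FPKM in *Foxf2*+/+, 45.1 in *Foxf2*+/-, and 1.41 and 2.28 in *Foxf2*-/- replicates 1 and 2, in the order of the labels. The files held no read counts, so the depth in reads is unknown, and coverage divided by FPKM put the other 3 libraries at 1.02 to 1.19 times the depth of the *Foxf2*+/+ library. All 10 palatal mesenchyme markers passed the filter, with summed levels of 1311 to 1539 FPKM, whereas all 6 endothelial markers and all 6 skeletal muscle markers were under 1 FPKM in every embryo and *Myog* was listed at 0. The 8 epithelial markers summed to 7.64 to 9.54 FPKM, the macrophage markers to 6.54 to 10.1 FPKM, and the Schwann and neuron markers to 3.81 to 7.51 FPKM. The 8 erythroid markers, led by *Hba-x*, summed to 145 FPKM in *Foxf2*+/+, 804 in *Foxf2*+/-, and 770 and 2173 in *Foxf2*-/- replicates 1 and 2.

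In the mean of the controls, the 9 host genes spanned a 158-fold range of levels per length of transcript, from *Snhg1* to *Snhg11*. The level of *Snhg1* was 163 FPKM in *Foxf2*+/+, 179 in *Foxf2*+/-, and 154 and 163 in *Foxf2*-/- replicates 1 and 2, above 97.7% of the genes tested. *Gas5* came next, at 43.4 and 47.4 FPKM in control and 35.2 and 40.8 FPKM in mutant embryos, above 89.6% of the genes tested. *Snhg12*, *Snhg6* and *Snhg3* followed at control means of 21.0, 18.4 and 16.2 FPKM. Lower still were *Snhg7*, *Snhg8* and *Snhg4*, at control means of 8.33, 7.24 and 5.94 FPKM. *Snhg1*, *Gas5*, the group of *Snhg12*, *Snhg6* and *Snhg3*, the group of *Snhg7*, *Snhg8* and *Snhg4*, and *Snhg11* were separated by gaps that no embryo crossed. Within both groups the ranges of neighbouring genes over the 4 embryos overlapped, so that their order was not larger than the spread.

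**Figure D1:**
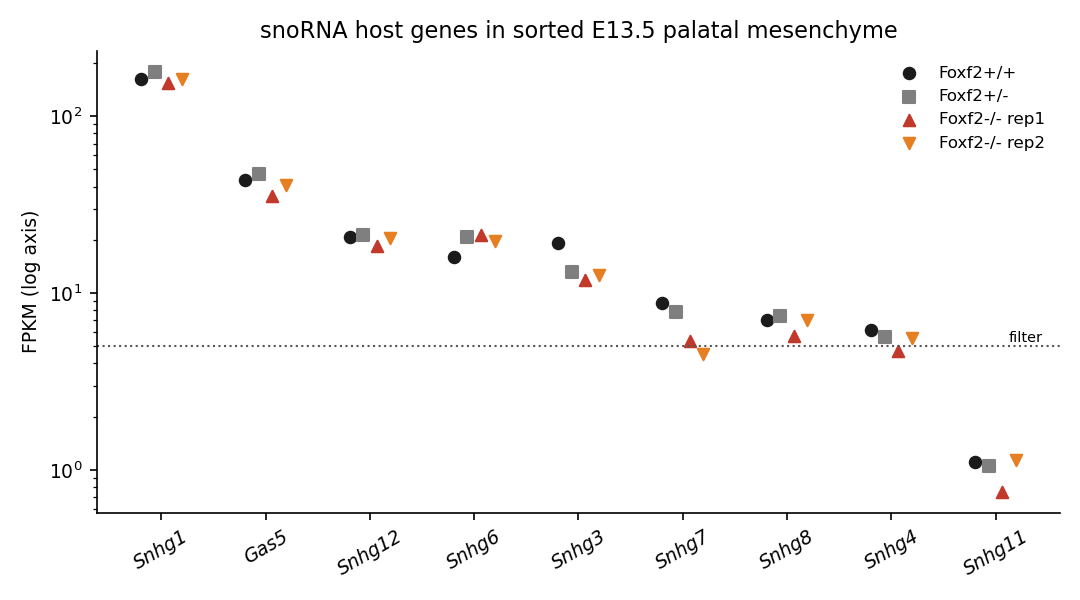
FPKM of the 9 snoRNA host genes with a row (logarithmic vertical axis) in each of the 4 embryos, with 1 symbol per embryo. The dotted line marks the filter of 5 FPKM. *Snhg7* is at 8.81 and 7.86 FPKM in control and 5.35 and 4.50 FPKM in mutant embryos, while *Snhg1* lies between 154 and 179 FPKM in all embryos.

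Of the 9 listed host genes with a row, *Snhg7* had the lowest *Foxf2*-/- level relative to control. It measured 8.81 FPKM with both *Foxf2* alleles intact and 7.86 FPKM with 1 allele, against 5.35 and 4.50 FPKM in the 2 embryos with none. Both mutant embryos thus lay below both controls, and the *Foxf2*+/- embryo lay between the *Foxf2*+/+ embryo and the mutants. The mean was 8.33 ± 0.672 FPKM (SD, n = 2) in the controls and 4.92 ± 0.603 FPKM (SD, n = 2) in the mutants, a log2 difference of -0.75 on the log2(FPKM + 0.1) scale. Against the single embryos, the mutants were 1.78-fold lower than *Foxf2*+/+ and 1.59-fold lower than *Foxf2*+/-. The deposited coverage of *Snhg7*, the mean read depth over the transcript before scaling for library size, was 11.96 and 12.7 in the controls and 7.44 and 6.98 in the mutants. In bulk RNA, fewer cells that express a gene and less RNA of it per cell cannot be told apart.

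*Snhg7* lies on the minus strand at chr2:26492696-26495764 of mm9, in a single deposited entry of 742 bases. GENCODE models on mm9 gave it 2 transcripts with spliced lengths of 741 and 2366 bases and up to 4 exons. No other gene of at least 200 bases overlapped it in the files. The nearest neighbour, *Fam69b*, which lies 679 bases away and was looked at after its values were known, was at 18.3 and 18.2 FPKM in control and 13.7 and 17.0 FPKM in mutant embryos, a log2 difference of -0.25. Counting by strand was not stated for these libraries, so reads from opposite strands cannot be told apart.

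The *Snhg7* transcript carries a pair of box H/ACA snoRNAs, *Snora17* at chr2:26494710-26494841 and *Snora43* at chr2:26493367-26493505, both on the minus strand of mm9. Both lie in an intron of 1 of the 2 annotated *Snhg7* transcripts and in an exon of the other, so 1 annotated form retains them. They are shown as the RNAs that this host carries. The capitals mark the ACA box, searched as ACA within the last 8 bases, which 32 of the 35 Snora entries that could be searched (91.4%) held.
Snora17: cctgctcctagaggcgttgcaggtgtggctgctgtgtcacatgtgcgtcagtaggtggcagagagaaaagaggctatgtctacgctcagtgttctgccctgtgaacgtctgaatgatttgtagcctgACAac
Snora43: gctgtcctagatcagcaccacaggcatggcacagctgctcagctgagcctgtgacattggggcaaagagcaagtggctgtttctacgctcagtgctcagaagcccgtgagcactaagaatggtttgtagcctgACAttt

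The entries of these snoRNAs did not order the embryos as their host did. *Snora17* was at 25.8 and 22.0 FPKM in the controls, was listed at 0 in *Foxf2*-/- replicate 1 and reached 44.4 FPKM in replicate 2. *Snora43* stood at 30.1 and 26.2 FPKM in the controls, and at 4.98 and 31.1 FPKM in *Foxf2*-/- replicates 1 and 2. The mutant replicates therefore fell on either side of both controls for both snoRNAs, whereas they were both below the controls for *Snhg7*. The deposited coverage of *Snora17* was 35.0 and 35.4 in the controls, and 0 and 68.9 in *Foxf2*-/- replicates 1 and 2. That of *Snora43* was 40.9 and 42.3 in the controls, and 6.92 and 48.3 in the mutants. How many reads lie behind these short entries is not known, so no disagreement between host and snoRNA is read from them.

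*Snhg3* was the other host gene to pass 1.5-fold against one of the controls. Its FPKM was 19.2 in *Foxf2*+/+, 13.2 in *Foxf2*+/-, and 11.9 and 12.7 in *Foxf2*-/- replicates 1 and 2. The mutants were 1.56-fold lower than *Foxf2*+/+ but only 1.08-fold lower than *Foxf2*+/-, and the controls differed from each other by a log2 value of -0.53 (*Foxf2*+/- minus *Foxf2*+/+), more than the *Foxf2*+/- embryo differed from the mutants. *Snhg3*, on the minus strand at chr4:131907848-131909601 of mm9, is overlapped in GENCODE by models of *Rcc1* and *Gm17300*. *Rcc1*, chosen for this overlap after its values were seen, was at 7.96 and 8.76 FPKM in control and 7.88 and 7.92 FPKM in mutant embryos. Its deposited entry lies 6183 bases from *Snhg3*, so the part of the overlapping models in the *Snhg3* values was not tested.

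*Gas5* was at 43.4 and 47.4 FPKM in control and 35.2 and 40.8 FPKM in mutant embryos. Both mutants were below both controls, with a log2 difference of -0.26, about as large as the log2 difference of 0.21 between the mutants. The deposited *Gas5* entry, chr1:162965297-162968668 on the plus strand of mm9, was 2554 bases long, near the upper end of the 25 GENCODE transcripts, which ranged from 346 to 2556 spliced bases. Because the FPKM is divided by that length, the level of *Gas5* relative to other genes depends on the transcript that was assumed.

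*Snhg1* and *Snhg12* were nearly level between genotypes. *Snhg1*, the host of several box C/D snoRNAs at chr19:8797977-8800816 of mm9, had a log2 difference of -0.11, with *Foxf2*+/+ and *Foxf2*-/- replicate 2 at 163.39 and 163.37 FPKM. Its deposited entry was 476 bases long against spliced lengths of 2339 to 2719 bases in GENCODE. *Snhg12*, at chr4:131864593-131866939, was at 20.6 and 21.4 FPKM in control and 18.4 and 20.6 FPKM in mutant embryos, a log2 difference of -0.11. For both genes, replicate 2 of the mutants was nearer to *Foxf2*+/+ than replicate 1 was.

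*Snhg6* was the single host gene with a higher mutant mean, at 16.1 FPKM in *Foxf2*+/+, 20.7 in *Foxf2*+/-, and 21.4 and 19.6 in *Foxf2*-/- replicates 1 and 2. The *Foxf2*+/+ embryo alone was low, and the *Foxf2*+/- embryo lay between the mutants. The log2 difference was 0.17 against both controls, 0.35 against *Foxf2*+/+ and -0.02 against *Foxf2*+/-, so its direction depended on which control was used. *Snhg6* lies at chr1:9932106-9934199 of mm9.

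*Snhg8*, at chr3:123210470-123211254 of mm9, was at 7.02 and 7.46 FPKM in control and 5.71 and 7.07 FPKM in mutant embryos. *Foxf2*-/- replicate 2 lay between the controls, and the mutants differed from each other by a log2 value of 0.30, more than the difference of -0.19 between the groups. *Snhg11*, at chr2:158201374-158211881 on the plus strand, was at 1.11 and 1.05 FPKM in control and 0.754 and 1.13 FPKM in mutant embryos, which bracketed the controls.

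**Figure D2:**
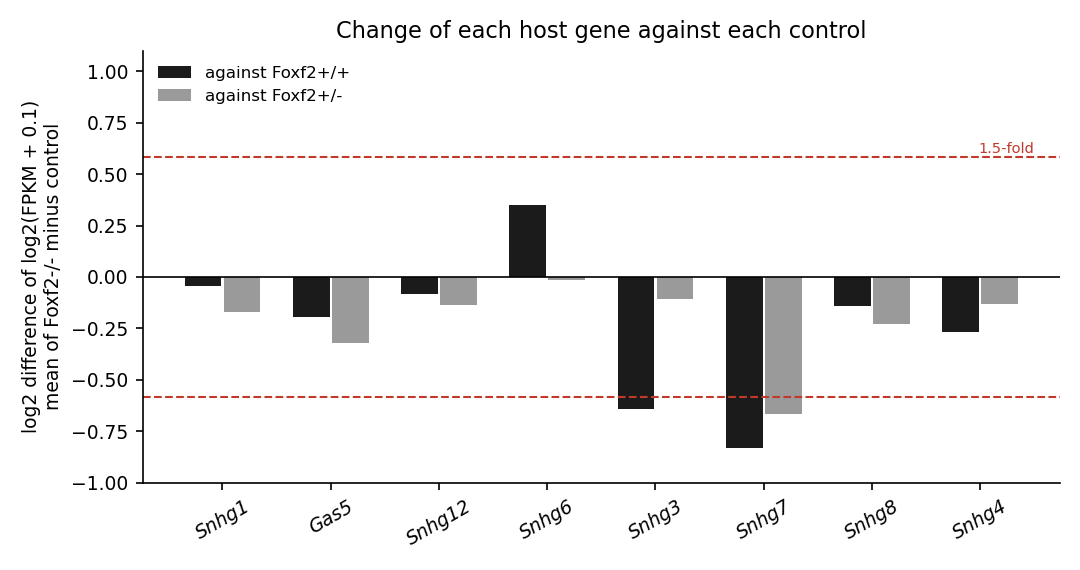
Difference of the *Foxf2*-/- mean from the *Foxf2*+/+ embryo (black bars) and from the *Foxf2*+/- embryo (grey bars) on the log2(FPKM + 0.1) scale for the 8 host genes above the filter. Dashed lines mark 1.5-fold. Both bars of *Snhg7* pass the lower line (-0.83 and -0.67), *Snhg3* passes it only against *Foxf2*+/+ (-0.64 and -0.11), and the bars of *Snhg6* point in opposite directions (0.35 and -0.02).

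Counted together, 1 of the 8 host genes above the filter (*Snhg7*) was lower in the *Foxf2*-/- embryos by more than 1.5-fold against both controls, and 0.19% of all genes tested were. None of the 8 was higher by this criterion, beside 0.447% of all genes. Both mutants were below both controls for 6 of the 8 host genes, *Snhg6* and *Snhg8* being the exceptions, beside 38.8% of all genes. Both mutants were above both controls for 0 of the 8, beside 8.66% of all genes. When the embryos were rescaled by median ratios, the share of all genes with both mutants below both controls went from 38.8% to 22.3%, that with both above went from 8.66% to 21.5%, and the 6 host genes became 3 (*Snhg7*, *Snhg3* and *Gas5*). The median log2 difference over the 8 host genes was -0.19 before and -0.11 after rescaling, where the median over all genes was -0.08 and -0.00144. Since the host genes were chosen by this contrast, nothing is read from these shares.

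The erythroid marker sum was higher in every other embryo than in *Foxf2*+/+, and its part in the *Snhg7* values was not tested. The *Foxf2*+/- embryo and *Foxf2*-/- replicate 1 had erythroid sums of 804 and 770 FPKM, and *Snhg7* levels of 7.86 and 5.35 FPKM. The 3 tested genes with the pattern nearest to that of *Snhg7*, by Euclidean distance between centred log2 values over the 4 embryos, were *Pcp4*, *Zfhx4* and *Frzb*, at distances of 0.165, 0.182 and 0.195. *Frzb*, which encodes a secreted Wnt antagonist, was at 56.5 and 53.4 FPKM in control and 41.4 and 32.7 FPKM in mutant embryos. *Zfhx4*, listed in that order, was at 71.8, 60.6, 48.4 and 40.3 FPKM. *Pcp4* was at 10.8, 9.17, 7.33 and 5.76 FPKM.

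The start sites of the host genes were compared because a TOP sequence begins with a cytosine at the first transcribed base and runs on in pyrimidines. RefSeq promoters on GRCm38.p6 were held for 8 of the 10 host genes, in 9 windows since *Gas5* has a pair of annotated starts. *Snhg6* and *Snhg4* were not matched. The 30 bases shown hold 15 before and 15 from the annotated start, and the capitals mark a run of at least 6 pyrimidines that begins with C within this window. The search found a run at only 51.4% of ribosomal protein gene starts, so a missing run does not show that a TOP sequence is absent. The first 4 sequences hold such a run and the last 3 do not.
Snhg7: gtggagatgctcggCCTCTCggcagccatg
Gas5: agccgccatctcagCCTTTCggagctgtgc
Snhg8: gcaccgttcagaagtCTCTTTggctgcgat
Snhg12: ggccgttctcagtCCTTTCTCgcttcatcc
Snhg1: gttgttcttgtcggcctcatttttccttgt
Snhg3: tagtcgaccacgcctgacttccgggcgtta
Snhg11: cgcactgcggcactcactcacgcactcagc

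These windows are chr2:26640230-26640259 (minus strand) for *Snhg7*, chr1:161035151-161035180 (plus) for the second start of *Gas5*, chr3:123508322-123508351 (minus) for *Snhg8* and chr4:132308663-132308692 (plus) for *Snhg12*. Those without a run are chr19:8723472-8723501 (plus) for *Snhg1*, chr4:132353672-132353701 (minus) for *Snhg3* and chr2:158375698-158375727 (plus) for *Snhg11*. In all, 4 of the 9 host gene starts (44.4%) held a run, beside 38 of 74 starts of ribosomal protein genes (51.4%), 5 of 11 starts of other TOP mRNAs (45.5%) and 22.5% of all 32851 promoters. The first start of *Gas5* and the start of *Snhg5* held none. Of the host genes with a run, *Snhg7* was lower in the mutants by a log2 value of 0.75, while *Gas5*, *Snhg8* and *Snhg12* had log2 differences of -0.26, -0.19 and -0.11. A run was thus shared by the host gene with the largest difference and by 1 of those with the smallest. Over the whole promoter of 300 bases, the forkhead motif TGTTTAC, searched on both strands, was in 0 of the 9 host gene windows and in 3.65% of all promoters, and the E-box CACGTG was in 0 of the 9 and in 7.15% of all.

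The snoRNAs within the hosts were themselves listed, as 11 entries of 56 to 198 bases in 7 of the host genes. Of these, 5 were listed at 0 in at least 1 embryo. The same was true of 47 of the 87 snoRNA entries of the whole table that were above 0 in some embryo. Both mutants were above both controls for 1 of the 11 entries and below both for 2, beside 11.5% and 14.9% of those 87 entries. The 3 sequences shown cover the entry that varied least and the pair that were listed at 0 in one genotype group. Capitals mark the C box (TGATGA, in the first 20 bases), the D box (CTGA, in the last 15 bases) or the ACA box, and these were found in 36.5% and 97.3% of the 74 Snord entries and in 91.4% of the 35 Snora entries that could be searched.
Snord47: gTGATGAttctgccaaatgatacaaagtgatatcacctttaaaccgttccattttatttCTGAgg
Snord87: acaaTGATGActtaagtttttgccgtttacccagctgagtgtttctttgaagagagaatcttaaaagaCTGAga
Snora61: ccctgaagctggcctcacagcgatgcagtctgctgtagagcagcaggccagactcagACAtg

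*Snord47*, a box C/D snoRNA at chr1:162968223-162968287 (plus strand, mm9), lies in an intron of 17 of the 18 *Gas5* transcripts that span it, and was at 253, 210, 246 and 221 FPKM in the *Foxf2*+/+, *Foxf2*+/- and *Foxf2*-/- embryos. Its genotype groups overlapped in FPKM, whereas those of *Gas5* did not. The deposited coverage of *Snord47* was nearly the same in all embryos, at 343, 339, 343 and 343. Its FPKM therefore differed mainly by the scaling for library size, and no contrast with *Gas5* is read from it. *Snord87*, at chr1:9932551-9932624 (minus strand) inside *Snhg6*, reached 317 and 87.0 FPKM in the controls but was listed at 0 in both mutants. *Snora61*, at chr4:131866222-131866283 (plus strand) inside *Snhg12*, was listed at 0 in both controls and was at 366 and 328 FPKM in the mutants. The deposited coverage, before scaling for library size, was 509 in both mutants for *Snora61*, and 431 and 140 in the controls for *Snord87*. How many reads lie behind such short entries is not known, so no genotype difference is read from them. *Snord99*, also in *Snhg12*, ran from 0 in *Foxf2*-/- replicate 2 to 1779 FPKM in replicate 1, with 911 and 767 FPKM in the controls. Its coverage was 1237 in each control, 2474 in *Foxf2*-/- replicate 1 and 0 in replicate 2. For *Snord99* the mutants thus lay on either side of the controls.

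*Snora44* in *Snhg12* was at 121 and 23.9 FPKM in control and 27.4 and 32.7 FPKM in mutant embryos. *Snora16a*, in the same gene, was at 6.34 FPKM in the *Foxf2*+/+ embryo and listed at 0 in the other 3 embryos. *Snord22* lies in an exon of both GENCODE *Snhg1* transcripts, which have spliced lengths of 2339 and 2719 bases. Its place relative to the shorter deposited *Snhg1* entry of 476 bases was not examined. *Snord22* was at 339 and 252 FPKM in control and 180 and 234 FPKM in mutant embryos. It was the second entry with both mutants below both controls. *Snora24* in *Snhg8* had too little data for an estimate.

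*Snhg4* lies on the plus strand of chromosome 18, from 35713064 to 35717970 in mm9. Its level was 6.22 and 5.65 FPKM in control and 4.73 and 5.60 FPKM in mutant embryos, a log2 difference of -0.20. The mutants were both below the controls, but replicate 2 was only just under the *Foxf2*+/- embryo. Its snoRNA *Snora74a* was at 7.28, 5.37, 3.02 and 5.38 FPKM, an order in which *Foxf2*-/- replicate 1 was also the lowest embryo.

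Genes that act with the hosts were tested by limma on all 7377 genes, of which 0.0949% had an adjusted p under 0.05 and 1086 an unadjusted p under 0.05. Shares and medians of the lists below are before rescaling by median ratios, after which 22.3% of all genes had both mutants below both controls. The proteins that form or assemble snoRNPs, the particles in which snoRNAs work, came first. None of the 18 tested genes of this list, out of 21, passed limma or the 1.5-fold criterion. An unadjusted limma p under 0.05 was found for 5 of them, both mutants were below both controls for 13 (72.2%, beside 38.8% of all genes), and the median log2 difference was -0.18, beside -0.08 for all genes. *Fbl*, the methyltransferase fibrillarin, was at 72.6 and 70.4 FPKM in control and 57.5 and 66.1 FPKM in mutant embryos, with a log2 difference of -0.21 ± 0.10 (SE, limma adjusted p = 0.376). *Nop56*, a core protein of box C/D particles, had a log2 difference of -0.21 ± 0.09 (SE, limma adjusted p = 0.34). *Ruvbl2*, an ATPase that helps to assemble these particles, was at 57.2 and 53.0 FPKM in control and 46.3 and 50.2 FPKM in mutant embryos (limma adjusted p = 0.392). The smallest adjusted p of the list was 0.133, for the assembly factor *Znhit6*, named after its values were seen, at 11.2 and 11.5 FPKM in control and 8.61 and 8.15 FPKM in mutant embryos.

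The next list was the genes of nonsense-mediated decay, which removes many spliced host transcripts. None of 18 tested genes, out of 22, passed limma or the criterion, 1 had an unadjusted limma p under 0.05, both mutants were below both controls for 8 (44.4%), and the median log2 difference of -0.08 equalled that of all genes to 2 decimals. *Magoh*, a part of the exon junction complex, was at 64.5 and 67.9 FPKM in control and 63.8 and 65.6 FPKM in mutant embryos, with a log2 difference of -0.03 (limma adjusted p = 0.903). *Rnps1* and *Eif4a3*, which bind at exon junctions too, had log2 differences of -0.16 and -0.16 (limma adjusted p = 0.462 and 0.484). Of 8 mRNAs known to be sensitive to this decay, 4 were tested and 0 passed limma, with 2 at an unadjusted p under 0.05. Their median log2 difference was -0.35, and both mutants were below both controls for 3 of the 4, beside -0.08 and 38.8% for all genes. *Gadd45a*, a stress-induced gene, was at 6.59 and 5.13 FPKM in control and 3.12 and 4.19 FPKM in mutant embryos, with a log2 difference of -0.67 ± 0.20 (SE, limma adjusted p = 0.235). *Atf4*, the stress-response transcription factor, was at 60.9 and 61.1 FPKM in control and 45.6 and 55.0 FPKM in mutant embryos (limma adjusted p = 0.297). *Tbl2* was nearly level, with a log2 difference of 0.02 (limma adjusted p = 0.954).

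The TOP mRNAs, whose translation is controlled together through mTOR, were the largest list. None of 95 tested genes passed limma or the criterion, 17 had an unadjusted limma p under 0.05, 81 (85.3%) had a lower mean in the mutants, as did 73.1% of all genes, and the median log2 difference was -0.12, beside -0.08. Within it, the 79 ribosomal protein genes had a median of -0.09 and the 16 other TOP mRNAs a median of -0.14. Both mutants were below both controls for 40 of the former (50.6%) and 15 of the latter (93.8%), beside 38.8% of all genes. *Rpl41*, *Rps27* and *Rpl10*, the most abundant, had log2 differences of 0.03, -0.01 and 0.01 (limma adjusted p from 0.912 to 0.975). *Eef1a1*, the elongation factor that brings aminoacyl-tRNA to the ribosome, was at 1596 and 1488 FPKM in control and 1382 and 1416 FPKM in mutant embryos (limma adjusted p = 0.532). *Npm1* and *Eef1g*, which encode nucleophosmin and another elongation factor subunit, had log2 differences of -0.13 and -0.28 (limma adjusted p = 0.539 and 0.271). Among 14 tested regulators of TOP translation, 0 passed limma or the criterion and 3 had an unadjusted limma p under 0.05. *Eif4e*, the cap-binding factor, had a log2 difference of -0.23 and its inhibitor *Eif4ebp2* one of 0.21 (limma adjusted p = 0.297 and 0.376). *Max*, the partner of Myc, had a log2 difference of 0.13 (limma adjusted p = 0.563).

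The other genes that hold a snoRNA entry in the files were the last list, 62 tested genes out of 70. None passed limma or the criterion, 14 had an unadjusted limma p under 0.05, 57 (91.9%) had a lower mean in the mutants, and both mutants were below both controls for 37 (59.7%), beside 73.1% and 38.8% of all genes. Their median log2 difference was -0.13, and -0.14 for the 41 that are not ribosomal protein genes. *Rpl13*, named after its values were seen, was at 1259 and 1193 FPKM in control and 895 and 947 FPKM in mutant embryos, with a log2 difference of -0.41 ± 0.10 (SE, limma adjusted p = 0.147), the most negative of this list. The most abundant, *Rpl10*, *Rpl39* and *Rpl23a*, had log2 differences of 0.01, -0.07 and -0.21 (limma adjusted p = 0.971, 0.756 and 0.352). The log2 difference of *Snhg7*, -0.75, was below the lowest of the snoRNP list (-0.43). It was also below that of the TOP mRNAs and the other hosts (-0.41, *Rpl13* in both). The lowest of the decay-sensitive mRNAs was nearer, at -0.67 (*Gadd45a*), and *Snhg7* had been chosen for its value.

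**Figure D3:**
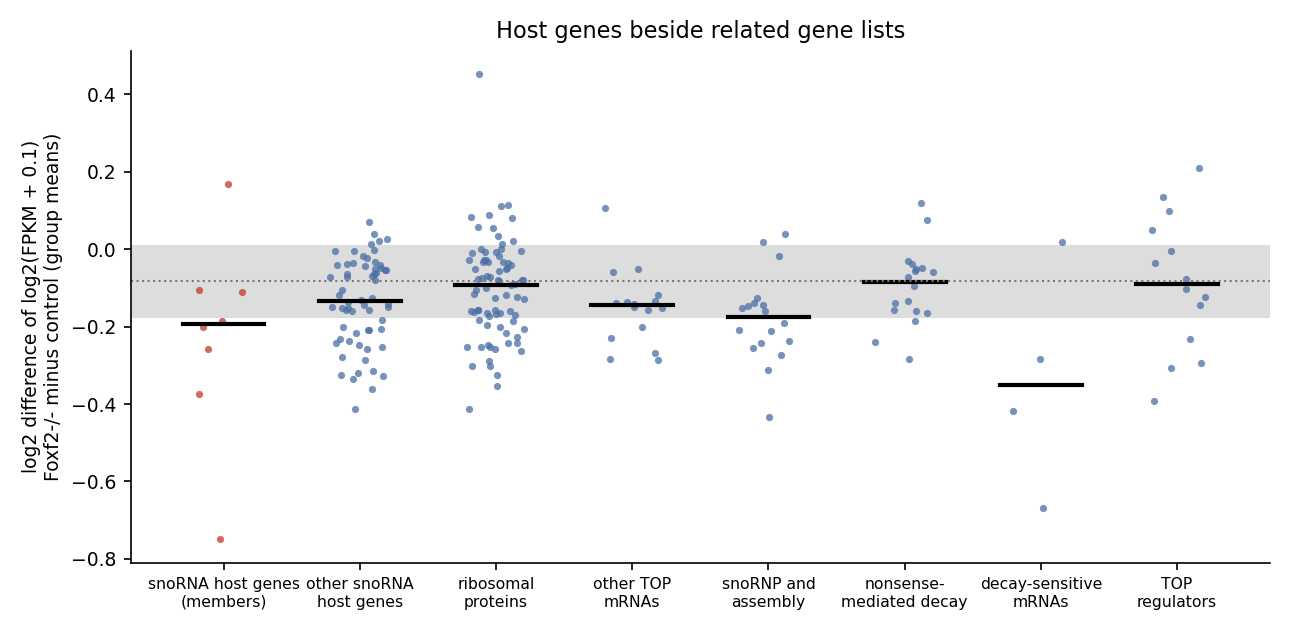
Log2 difference between the *Foxf2*-/- and control means for each tested gene (points) of the host genes (red) and of the related lists (blue), with the list median as a black bar. The grey band holds the middle of all 7377 genes, from the lower to the upper quartile, and the dotted line is their median of -0.08. Other host genes that belong to a further list appear in both, namely those that code for ribosomal proteins, *Nop56* and *Nop58* (snoRNP), and *Eef1b2*, *Eef2* and *Gnb2l1* (other TOP). *Snhg7* is the lowest point, at -0.75, and the median of the 4 decay-sensitive mRNAs, at -0.35, is the lowest of the medians, the others lying between -0.19 and -0.08.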

How the data were processed

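FPKM were measured in RFP-positive palatal mesenchyme of 2 *Foxf2*-/- and 2 control embryos. Single-end reads were mapped by the authors to mm9 with Tophat and Bowtie (0.12.7, per the submitters' processing notes), and the deposited tables, of the form written by Cufflinks, give FPKM and coverage for each of 28107 RefSeq entries. The version of that program is not given in the sources used here. The deposited coverage is not scaled for library size. Entries shorter than 200 bases, and 319 entries of any length whose estimate was not marked as usable in every embryo, were left out, the rest were summed by symbol, and genes reaching 5 FPKM in any embryo were kept. log2(FPKM + 0.1) was compared by limma 3.58.1 with a variance trend in R 4.3.3, with Benjamini-Hochberg adjustment over 7377 genes, and by a difference of more than 1.5-fold from each control. The pseudocount of 0.1 understates changes of low genes. An exact permutation test of 2 against 2 embryos cannot give a p below 0.333. In each list the genes named were those called, or otherwise the 3 with the highest mean FPKM over the 4 embryos, and others are marked as chosen later. Members and lists were chosen with earlier results of these data known. snoRNA sequences were read from NCBIM37 (mm9) with GENCODE vM1 models, and promoters came from RefSeq.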

Additional observations from a re-analysis of the deposited data

How the results depend on the processing

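The number of host genes lower by more than 1.5-fold against both controls, 1 (*Snhg7*), became 0 with a pseudocount of 1 and 0 with a 2-fold threshold. It ranged from 0 (without *Foxf2*-/- replicate 2) to 2 (without the *Foxf2*+/- control, when *Snhg3* joined *Snhg7*) as single embryos were left out. The log2 difference of *Snhg7* was between -0.87 and -0.63 over 9 alternatives, and that of *Snhg6* was -0.02 without the *Foxf2*+/+ control. Changing the filter or the entry length could not alter such values, since each host gene had 1 entry. Over the same alternatives, *Snhg3* ranged from -0.64 to -0.11, *Gas5* from -0.36 to -0.15, *Snhg8* from -0.34 to -0.03, *Snhg4* from -0.32 to -0.08, *Snhg12* from -0.19 to -0.03 and *Snhg1* from -0.17 to -0.02. Over all genes, the criterion called 47 and limma 7. With no filter on low values these counts were 638 and 0, with entries of any length 174 and 25, with a filter of 1 FPKM the criterion called 215, and with 2-fold it called 15. limma called 21 with a pseudocount of 1, 12 after rescaling and 126 with a separate mean for each genotype. With single embryos left out, the criterion called 69 to 214 and limma 6 to 128, the most without the *Foxf2*+/- control. The snoRNP, nonsense-mediated decay, decay-sensitive, TOP mRNA, TOP regulator and other host lists had 0 limma calls in each alternative run. For the host genes themselves no limma call is read in any run, because they were chosen by this contrast. Causes were not tested. No paired analysis was possible because only the *Foxf2*-/- embryos carry replicate numbers.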

Other observations

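Several genes now named as snoRNA host genes were found by RefSeq accession rather than by the listed symbols, and were looked at after the other values were known. They are given here as values, and *Snhg16* and *Snhg18* were also among the other host genes tested above under earlier symbols. *Snhg20* was at 7.99 and 8.89 FPKM in control and 3.96 and 7.32 FPKM in mutant embryos. Both mutants were below both controls, but replicate 2 was close to the *Foxf2*+/+ embryo. The log2 differences of *Snhg20* were -0.56 against *Foxf2*+/+ and -0.71 against *Foxf2*+/-. *Snhg16* was at 8.25 and 7.91 FPKM in control and 6.04 and 6.74 FPKM in mutant embryos. Its 3 entries did not share this order, since the entry of 673 bases was at 0.729 and 1.96 FPKM in control and 4.23 and 2.93 FPKM in mutant embryos. *Snhg10*, below the filter, was at 2.24 and 2.94 FPKM in control and 1.70 and 1.19 FPKM in mutant embryos. Its log2 differences, -0.62 against *Foxf2*+/+ and -0.998 against *Foxf2*+/-, were both past 1.5-fold, so *Snhg7* was not alone in this among genes now named as hosts. *Snhg17* was at 3.05, 3.40, 2.84 and 2.94 FPKM in the *Foxf2*+/+, *Foxf2*+/- and *Foxf2*-/- embryos, and *Snhg18* at 9.42, 9.23, 8.94 and 10.7 FPKM. *Snhg9*, whose entry is 183 bases long, was at 2.09, 1.79, 2.06 and 1.83 FPKM.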
